A study of Rattus norvegicus with 26 samples.

Results

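The genes described here are 41 nuclear subunit genes of the respiratory chain beyond complex I: 4 of complex II, 9 of complex III, cytochrome c (Cycs), 12 of complex IV and 15 of complex V, the ATP synthase. They were chosen by name from the subunit composition of these complexes and not by their values, though with earlier results of these data known. All 41 were found under their current symbols among the 34034 genes of the count table, and all 41 passed the filter on low counts that left 10064 genes for testing. RNA was measured in the soleus, a postural calf muscle made mostly of slow fibres, of aged female rats from the 44th generation of lines bred for high (HCR) or low (LCR) running capacity. The 4 groups were HCR rats with voluntary wheel running (n = 5), LCR rats with voluntary wheel running (n = 5), sedentary HCR rats (n = 8) and sedentary LCR rats (n = 8). Runners were housed in pairs with a wheel for more than 5 months, and sedentary rats had no wheel. Cage mates may share a running history, and the labels used here do not tie rats to cages, so cage did not enter the tests. The labels do not give the distance that each rat ran or the age in months. Each library has its own sample name, and p-values measure the spread between these libraries.

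The respiratory chain passes electrons from NADH and succinate to oxygen, pumps protons across the inner mitochondrial membrane, and drives the ATP synthase with the resulting gradient. Complex II oxidises succinate and is the only one of the 4 complexes whose subunits are all encoded in the nucleus. Complex III hands electrons to cytochrome c, and complex IV passes them on to oxygen. Complexes III, IV and V each also hold mitochondrially encoded subunits, so nuclear and mitochondrial gene products have to be made together. Slow fibres are rich in mitochondria, and endurance training is known to raise mitochondrial content in skeletal muscle through PGC-1 coactivators, the nuclear respiratory factors NRF1 and GABP, and the oestrogen-related receptors (ERR).

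Promoter sequences are shown for Uqcrh, the subunit gene that passed the test for running, and for 2 isoform pairs. The c-ring genes Atp5mc1 and Atp5mc3 make the same mature protein, and Cox8a and Cox8b are the general and the muscle isoform of a complex IV subunit. The windows come from RefSeq (GRCr8) and run from 250 bases before to 50 bases after the annotated start, 300 bases in all. Capitals mark matches on either strand to GCGCANGCG (NRF1), CCGGAAG (GABP), AAGGTCA (ERR) or AAGATGG (YY1).
Uqcrh: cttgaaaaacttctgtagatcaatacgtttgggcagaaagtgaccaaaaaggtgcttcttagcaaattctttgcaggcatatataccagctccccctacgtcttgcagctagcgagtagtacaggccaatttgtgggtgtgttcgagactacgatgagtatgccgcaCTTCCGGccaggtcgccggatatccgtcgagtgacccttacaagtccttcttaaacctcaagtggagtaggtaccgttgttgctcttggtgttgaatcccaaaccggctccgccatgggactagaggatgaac
Atp5mc1: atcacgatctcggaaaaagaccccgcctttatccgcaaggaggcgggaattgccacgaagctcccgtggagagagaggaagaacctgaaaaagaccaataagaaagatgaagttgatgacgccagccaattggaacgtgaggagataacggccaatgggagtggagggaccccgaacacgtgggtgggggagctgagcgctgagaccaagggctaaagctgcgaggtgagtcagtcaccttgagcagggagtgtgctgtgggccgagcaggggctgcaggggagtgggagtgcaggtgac
Atp5mc3: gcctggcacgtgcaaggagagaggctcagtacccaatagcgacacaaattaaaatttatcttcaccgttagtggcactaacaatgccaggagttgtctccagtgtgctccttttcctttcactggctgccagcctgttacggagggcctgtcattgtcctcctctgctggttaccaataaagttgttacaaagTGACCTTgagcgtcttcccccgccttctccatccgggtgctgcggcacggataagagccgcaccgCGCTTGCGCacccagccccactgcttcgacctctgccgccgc
Cox8a: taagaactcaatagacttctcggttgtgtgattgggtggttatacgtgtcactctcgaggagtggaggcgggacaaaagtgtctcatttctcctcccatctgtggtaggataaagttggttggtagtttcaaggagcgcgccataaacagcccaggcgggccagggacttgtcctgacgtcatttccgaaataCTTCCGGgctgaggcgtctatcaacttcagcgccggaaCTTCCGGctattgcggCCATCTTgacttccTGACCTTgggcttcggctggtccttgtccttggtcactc
Cox8b: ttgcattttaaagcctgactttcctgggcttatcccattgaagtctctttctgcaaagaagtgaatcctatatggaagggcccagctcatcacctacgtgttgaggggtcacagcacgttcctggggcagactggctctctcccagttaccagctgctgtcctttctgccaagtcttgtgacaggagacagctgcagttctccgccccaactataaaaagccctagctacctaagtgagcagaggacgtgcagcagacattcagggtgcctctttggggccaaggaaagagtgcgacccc

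The Uqcrh window (chr5:134790833-134791132 on the minus strand) held 1 match, to the GABP motif, at bases 168 to 174 of the window. The Atp5mc3 window (chr3:79220615-79220914 on the minus strand) held an ERR match at bases 194 to 200 and an NRF1 match at bases 259 to 267, and the Atp5mc1 window (chr10:81523296-81523595 on the minus strand) held none of the 4 motifs. The Cox8a window (chr1:213833574-213833873 on the minus strand) held GABP matches at bases 194 to 200 and 232 to 238, a YY1 match at bases 248 to 254 and an ERR match at bases 262 to 268. The Cox8b window (chr1:205408224-205408523 on the minus strand) held none of the 4. RefSeq windows were at hand for 36 of the 41 subunit genes. The GABP motif lay in 13 of these 36 (36.1%), against 8.75% of all 33469 promoter windows of this length. YY1 had matches in 10 subunit windows (27.8%, against 7.01% of all windows), NRF1 in 9 (25.0%, against 5.8%) and ERR in 7 (19.4%, against 4.61%). NRF1 matches lay in 6 of 14 complex V windows, in 0 of 11 complex IV windows and in the Cycs window. In 25 subunit windows at least 1 motif was found and in 11 none. A match in letters is not a measured binding site, and overlapping matches on the 2 strands were counted once per window. All promoter windows served as background without matching for GC or CpG content. The shares therefore cannot tell whether the excess is particular to these genes.

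Counts came from 3′ end libraries, in which a transcript gives reads near its poly(A) end whatever its length. Levels are given as CPM after TMM normalisation, which relates each count to the effective total of its library. Library totals were 1099961 to 2523942 counts, and the 41 subunit genes took 1.55% to 2.20% of a library's counts. Markers of slow fibres led in every group: Myh7, the slow myosin heavy chain, averaged 11490 CPM in HCR runners, 10990 CPM in LCR runners, 10210 CPM in sedentary HCR and 11410 CPM in sedentary LCR. Myh4, a fast myosin heavy chain, averaged 45.8 to 87.4 CPM over the 4 groups. It is a small part of the fast fibre signal: 9 fast fibre markers together averaged 3533 CPM in HCR runners and 9265 CPM in LCR runners. They averaged 5784 CPM in sedentary HCR and 9581 CPM in sedentary LCR rats. HCR runner 5 and LCR runner 5 carry titles that name the other line. They are kept here in the line given by their genotype label: Ackr4, which separated the sedentary lines without overlap (6.88 to 11.2 CPM in HCR, 0 to 2.08 CPM in LCR), was at 11.2 CPM in HCR runner 5 and at 0.879 CPM in LCR runner 5. Ackr4 did not separate the lines among the other runners, where it was at 1.66 to 10.6 CPM in HCR and 0 to 3.16 CPM in LCR. A second gene, LOC102550339, did so in both conditions: it was at 19.9 to 50.4 CPM in the 4 other HCR runners and 0 to 1.63 CPM in the 4 other LCR runners, and at 10.9 to 23.05 CPM in sedentary HCR and 0 to 0.694 CPM in sedentary LCR rats. LOC102550339 was at 26.6 CPM in HCR runner 5 and at 0.879 CPM in LCR runner 5. Both genes were picked because they differed between the lines.

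Subunit levels differed between libraries in a way that went with the total of counts in the table, called depth here, and with the TMM factor. The libraries of the highest totals, sedentary HCR 3 (2523942 counts) and sedentary LCR 5 (2457449 counts), were also the lowest for the subunits. In sedentary HCR 3, 0 of 41 subunits were above their mean level, and the median subunit was at -0.40 log2 units from it. In sedentary LCR 5, 2 of 41 were above the mean and the median subunit was at -0.44 log2 units from it. At the other end, LCR runner 5 (1275153 counts) had 39 of 41 subunits above the mean and a median at 0.20 log2 units from it. Sedentary HCR 4 (1559494 counts) had 36 of 41 above it. Not every library followed its total. Sedentary LCR 1 (1952880 counts) had 37 of 41 above the mean and a median at 0.15 log2 units from it. HCR runner 4 (1269765 counts) had 24 of 41 above the mean and a median at 0.015 log2 units from it. The TMM factors were 1.153 in sedentary HCR 3, 1.097 in sedentary LCR 5, 0.8987 in LCR runner 5 and 0.8973 in sedentary HCR 4. As plain shares of counts, the subunits took 1.664% in sedentary HCR 3 and 1.554% in sedentary LCR 5, the lowest of their groups. The share was 2.021% in LCR runner 5 and 1.966% in sedentary HCR 4, below the highest of their groups (2.195% and 1.999%). The separate parts of depth and TMM factor were not tested. In a fit with log2 total counts as a term, 35 of 41 subunits (85.4%) had a slope below 0, with a median of -0.32 log2 units per doubling of the total, against 47.8% of all 10064 genes and a median of 0.018. These slopes were not fitted without the 2 deepest libraries. HCR runners averaged 1493161 ± 321190 counts and sedentary HCR rats 1848548 ± 350929 (SD), so depth and running were not balanced in this line. LCR runners averaged 1698707 ± 279532 counts and sedentary LCR rats 1796278 ± 321467. The medians for running over all subunits, and those by complex averaged over the lines, are therefore given also without the 2 deepest libraries and with the depth term. The counts by complex, the counts at an unadjusted p and most single subunits are given in the main fit only.

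**Figure D1:**
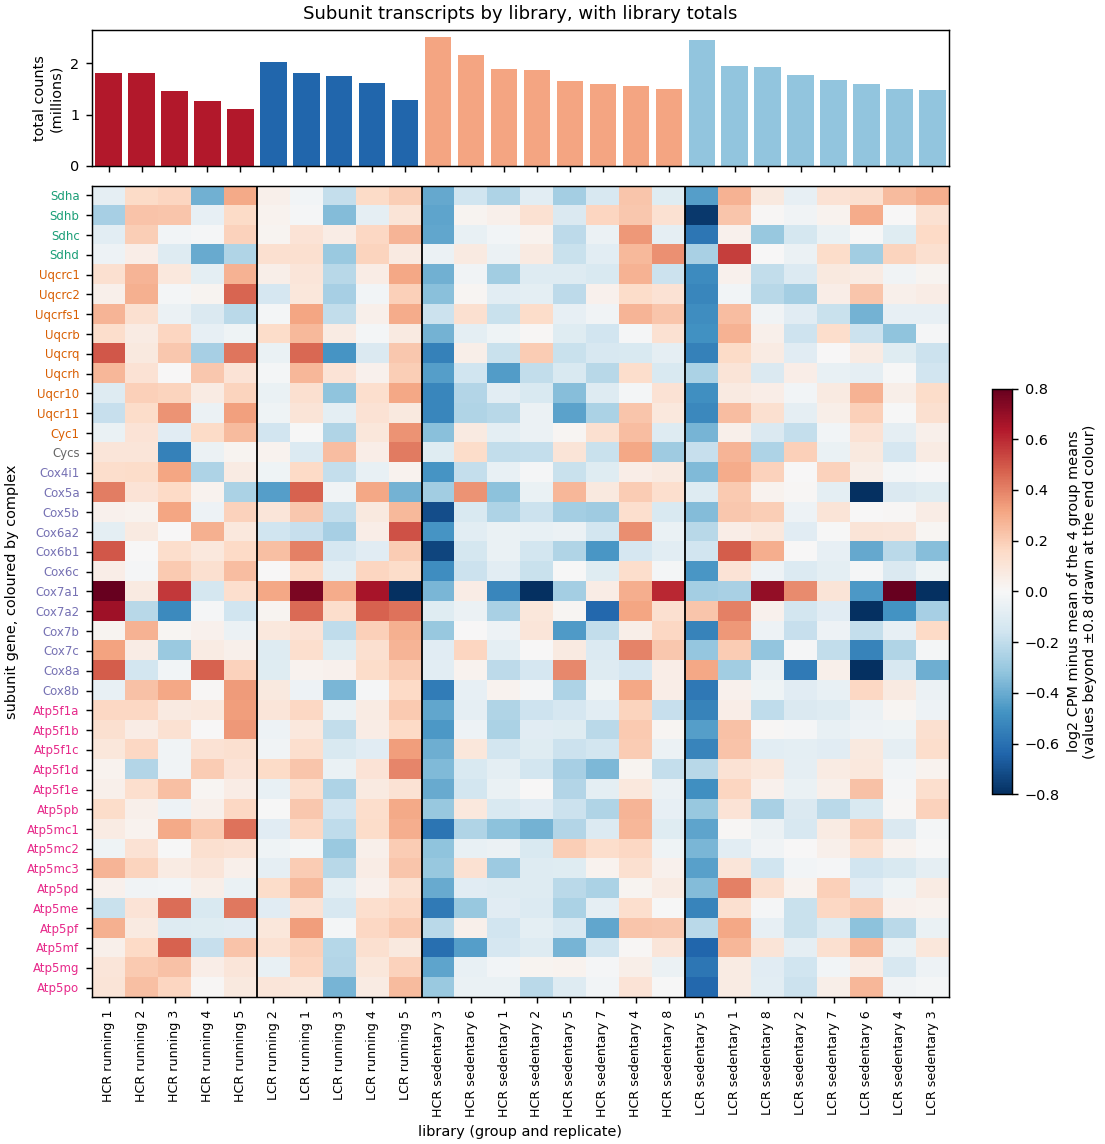
Log2 CPM of each subunit gene (rows, coloured by complex) in each of the 26 libraries (columns), minus the mean of the 4 group means, with total counts as bars above; libraries run from deepest to shallowest within each group. Sedentary HCR 3 and sedentary LCR 5, the deepest libraries, form the blue columns, with 0 and 2 of 41 subunits above the mean.

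**Figure D2:**
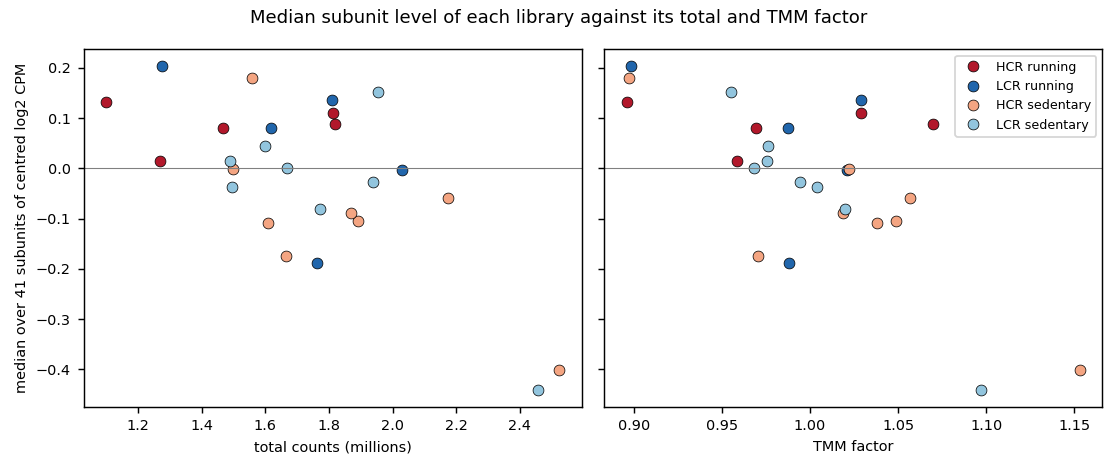
Median over the 41 subunits of log2 CPM minus the mean of the 4 group means, 1 point per library, against total counts (left) and TMM factor (right). The 2 points at the lower right of the left panel are sedentary HCR 3 at -0.40 and sedentary LCR 5 at -0.44.

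With running, nearly the whole set lay slightly higher. Averaged over the lines, 39 of the 41 subunits had a higher fitted level in runners than in sedentary rats, with a median log2 fold change of 0.15, against 49.0% of all genes tested and a median of -0.0040. In bulk tissue, fewer cells of a type and less RNA per cell cannot be told apart. The exceptions were Sdhb and Sdhd, both of complex II. Only Uqcrh passed the adjusted p of 0.05 in edgeR's quasi-likelihood test (1 of 41, against 0.378% of all genes). At an unadjusted p under 0.05, 18 of 41 (43.9%) were higher, against 6.74% of all genes, and 0 were lower, against 5.97% of all genes. The sum of all 41 averaged 21320 ± 1114 CPM in HCR runners and 18500 ± 2083 CPM in sedentary HCR rats, and 20380 ± 2026 CPM in LCR runners and 19150 ± 2194 CPM in sedentary LCR rats (SD), with overlap in both lines. Without the 2 deepest libraries, the median was 0.099 and 38 of 41 lay above 0. With the depth term, it was 0.091 with 35 of 41 above 0, and 0 subunits passed the adjusted threshold under either setting. By complex, the medians without the 2 deepest libraries and with the depth term were -0.034 and -0.053 for complex II, 0.093 and 0.081 for complex III, 0.12 and 0.13 for complex IV, and 0.12 and 0.11 for complex V.

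Within HCR rats, 37 of 41 subunits lay above 0 with a median log2 fold change of 0.20. None passed the adjusted threshold (0 of 41, against 0.0994% of all genes, smallest adjusted p = 0.0995 by edgeR), 15 (36.6%) were higher at an unadjusted p under 0.05, against 6.33% of all genes, and 0 were lower, against 6.21%. Within LCR rats, 36 of 41 lay above 0 with a median of 0.12. Again 0 passed the adjusted threshold, as did 0% of all genes. At an unadjusted p under 0.05, 6 (14.6%) were higher, against 2.89% of all genes, and 0 were lower, against 3.19%. Without the 2 deepest libraries the medians were 0.15 (36 of 41 above 0) in HCR rats and 0.070 (26 of 41) in LCR rats, and with the depth term 0.11 (32 of 41) and 0.092 (31 of 41). Without the runners whose titles conflict, the LCR median was 0.057 with 28 of 41 above 0. On leaving out 1 library, the LCR median ran from 0.057 without LCR runner 5 to 0.18 without LCR runner 3.

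The 4 group means were put in order for each subunit. These orders were not counted over all genes or without the 2 deepest libraries. Subunits also shifted together within a library, so the 41 orders are not independent. For 28 of the 41 subunits the highest of the 4 group means was that of HCR runners, for 10 that of LCR runners, for 1 that of sedentary HCR rats and for 2 that of sedentary LCR rats. The lowest mean was that of sedentary HCR rats for 24 subunits and that of sedentary LCR rats for 14. Both runner means lay above both sedentary means for 30 subunits: 1 of 4 in complex II, 8 of 9 in complex III, 9 of 12 in complex IV, 12 of 15 in complex V, and not for Cycs. These orders are of means, and the libraries of runners and sedentary rats overlapped for all but Cox6b1 and Atp5mg in HCR rats (2 of 41 without overlap, against 0.596% of all genes) and for all 41 in LCR rats (0 of 41 without overlap, against 0.268%).

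**Figure D3:**
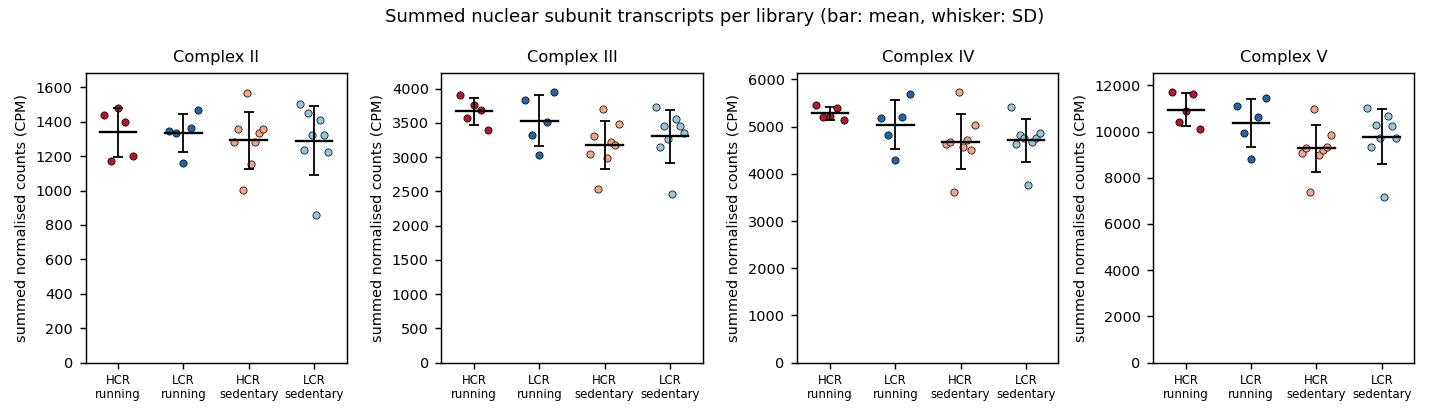
Summed CPM of the nuclear subunits of complexes II, III, IV and V in each library, by group, with the group mean (bar) and SD (whisker). Complex V averaged 10950 CPM in HCR runners and 10380 CPM in LCR runners, against 9269 CPM in sedentary HCR and 9769 CPM in sedentary LCR rats, while the 4 complex II means lay between 1291 and 1339 CPM.

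Complex II, succinate dehydrogenase, had nearly the same mean summed level in each group: 1339 ± 141 CPM in HCR runners, 1335 ± 112 CPM in LCR runners, 1292 ± 164 CPM in sedentary HCR and 1291 ± 200.3 CPM in sedentary LCR rats (SD). Its median log2 fold change with running, averaged over the lines, was 0.028, with 2 of 4 subunits above 0 and none past the adjusted threshold, and it was below 0 under both depth settings. Sdhc, a membrane anchor that helps bind ubiquinone, had 436, 528, 455, 459 and 525 CPM in HCR runners 1 to 5, against 346, 445 and 586 CPM as the lowest, median and highest of the 8 sedentary HCR rats. Sdhc had 498, 468, 482, 518 and 558 CPM in LCR runners 1 to 5, against 309, 438 and 514 CPM (lowest, median, highest) in the 8 sedentary LCR rats. All 5 LCR runners were above the sedentary LCR median, and 2 of them above every sedentary LCR rat. The log2 fold change of Sdhc with running was 0.24 ± 0.10 (SE) in LCR rats (edgeR, adjusted p = 0.753) and 0.17 ± 0.073 (SE) averaged over the lines (adjusted p = 0.313). Sdhd, the other anchor, had 138, 146, 131, 107 and 119.6 CPM in HCR runners 1 to 5, against 125, 142 and 182 CPM as the lowest, median and highest of the 8 sedentary HCR rats. Sdhd had 154, 154, 115, 159.8 and 149 CPM in LCR runners 1 to 5, against 116, 148 and 207 CPM (lowest, median, highest) in the 8 sedentary LCR rats. For Sdhd, 1 of 5 HCR runners was above the sedentary HCR median and 0 of 5 above the LCR runner median. Its log2 fold change was -0.11 ± 0.082 (SE) averaged over the lines (edgeR, adjusted p = 0.626) and -0.18 ± 0.13 (SE) between running HCR and running LCR rats (adjusted p = 0.751). Sdha, the flavoprotein that oxidises succinate, had 146, 170.3, 173, 118 and 189 CPM in HCR runners 1 to 5, against 115, 139 and 179 CPM as the lowest, median and highest of the 8 sedentary HCR rats. Sdha had 151, 158, 134, 171 and 176 CPM in LCR runners 1 to 5, against 113, 167 and 187 CPM (lowest, median, highest) in the 8 sedentary LCR rats. Only 1 of 8 sedentary HCR rats was above the sedentary LCR median for Sdha. The log2 fold change between the sedentary lines was -0.23 ± 0.099 (SE) (edgeR, adjusted p = 0.221), and that with running in HCR rats was 0.19 ± 0.11 (SE) (adjusted p = 0.505). Sdhb, the iron-sulphur subunit, had a log2 fold change with running of -0.014 ± 0.088 (SE) averaged over the lines (edgeR, adjusted p = 0.976).

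Complex III, the cytochrome bc1 complex, had 9 of 9 subunits above 0 with running averaged over the lines, with a median log2 fold change of 0.15. Its summed level was 3666 ± 196 CPM in HCR runners and 3179 ± 347 CPM in sedentary HCR rats, and 3530 ± 373 CPM in LCR runners and 3302 ± 386 CPM in sedentary LCR rats (SD). Uqcrh, the acidic hinge protein that sits beside cytochrome c1, had 356, 321, 296, 344 and 319.9 CPM in HCR runners 1 to 5, against 217, 262 and 327 CPM as the lowest, median and highest of the 8 sedentary HCR rats. Uqcrh had 356, 292, 319, 303 and 340.3 CPM in LCR runners 1 to 5, against 248, 283 and 318 CPM (lowest, median, highest) in the 8 sedentary LCR rats. All 5 runners of each line were above the median of their sedentary group, and the groups overlapped in both lines. Uqcrh rose with running averaged over the lines, with a log2 fold change of 0.26 ± 0.061 (SE) (edgeR, adjusted p = 0.0491). Its log2 fold change was 0.33 ± 0.086 (SE) in HCR rats (adjusted p = 0.0995) and 0.18 ± 0.086 (SE) in LCR rats (adjusted p = 0.795). The call was close to the threshold: it was lost in 25 of 26 fits that left out 1 library (adjusted p from 0.0129 without sedentary HCR 4 to 0.134), without the 2 deepest libraries (adjusted p = 0.0867), with the depth term (0.138) and without the libraries whose titles conflict (0.0785). The log2 fold change lay between 0.22 and 0.28 over the 39 alternatives run. Uqcrc1, a core protein of the complex, had 284, 315, 276, 247 and 316 CPM in HCR runners 1 to 5, against 200, 241 and 317 CPM as the lowest, median and highest of the 8 sedentary HCR rats. Uqcrc1 had 278, 269, 223, 272 and 323 CPM in LCR runners 1 to 5, against 184, 261 and 275 CPM (lowest, median, highest) in the 8 sedentary LCR rats. All 5 HCR runners and 4 of 5 LCR runners were above their sedentary medians. Uqcrc1 had a log2 fold change of 0.19 ± 0.072 (SE) averaged over the lines (edgeR, adjusted p = 0.24).

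Uqcr11, a small membrane subunit, had 471, 593, 688, 518 and 672 CPM in HCR runners 1 to 5, against 372, 456 and 624 CPM as the lowest, median and highest of the 8 sedentary HCR rats. Uqcr11 had 575, 522, 506, 581 and 565 CPM in LCR runners 1 to 5, against 374, 569 and 636 CPM (lowest, median, highest) in the 8 sedentary LCR rats. All 5 HCR runners were above the sedentary HCR median, and 2 of 5 LCR runners above the sedentary LCR median. Uqcr11 had the smallest p of complex III for a difference between the lines in the running response, HCR minus LCR, of 0.29 ± 0.16 (SE) on the log2 scale, which did not pass (edgeR, adjusted p = 0.852). Uqcr10, a small subunit that contacts cytochrome c1, had 514, 631, 625, 578 and 624 CPM in HCR runners 1 to 5, against 384, 510.5 and 599 CPM as the lowest, median and highest of the 8 sedentary HCR rats. Uqcr10 had 604, 533, 442, 606 and 685 CPM in LCR runners 1 to 5, against 393, 576 and 670.2 CPM (lowest, median, highest) in the 8 sedentary LCR rats. Uqcr10 was above the sedentary LCR median in 1 of 8 sedentary HCR rats, with a log2 fold change between the sedentary lines of -0.19 ± 0.096 (SE) (edgeR, adjusted p = 0.343). Uqcrc2, the other core protein, had 290.2, 345, 280.2, 287 and 390.4 CPM in HCR runners 1 to 5, against 224, 277 and 313 CPM as the lowest, median and highest of the 8 sedentary HCR rats. Uqcrc2 had 302, 258, 235, 278 and 323 CPM in LCR runners 1 to 5, against 196, 284 and 329.6 CPM (lowest, median, highest) in the 8 sedentary LCR rats. All 5 HCR runners were above the LCR runner median, and 2 above every LCR runner. Uqcrc2 had a log2 fold change of 0.19 ± 0.12 (SE) between the running lines (edgeR, adjusted p = 0.701). The other 4 subunits, Uqcrfs1 (the Rieske iron-sulphur protein), Uqcrb, Uqcrq and Cyc1 (cytochrome c1), had log2 fold changes with running, averaged over the lines, of 0.094, 0.15, 0.22 and 0.085. Uqcrfs1 was at -0.028 in HCR rats and at 0.22 in LCR rats, and the difference did not pass (edgeR, adjusted p = 0.869).

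Cycs, the soluble carrier between complexes III and IV, which is also a trigger of apoptosis once released, had 85.1, 85.2, 54.6, 77.0 and 80.7 CPM in HCR runners 1 to 5, against 65.4, 72.3 and 98.7 CPM as the lowest, median and highest of the 8 sedentary HCR rats. Cycs had 73.8, 81.2, 94.4, 82.8 and 106 CPM in LCR runners 1 to 5, against 67.0, 80.0 and 96.2 CPM (lowest, median, highest) in the 8 sedentary LCR rats. The groups overlapped in every comparison. Cycs had log2 fold changes with running of -0.017 ± 0.12 (SE) in HCR rats and 0.12 ± 0.12 (SE) in LCR rats, and of 0.054 ± 0.083 (SE) averaged over the lines (edgeR, adjusted p = 0.846). Between the lines it was at -0.044 ± 0.10 (SE) in sedentary and at -0.19 ± 0.13 (SE) in running rats (adjusted p = 0.884 and 0.749), and the difference in response was -0.14 ± 0.17 (SE) (adjusted p = 0.941).

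**Figure D4:**
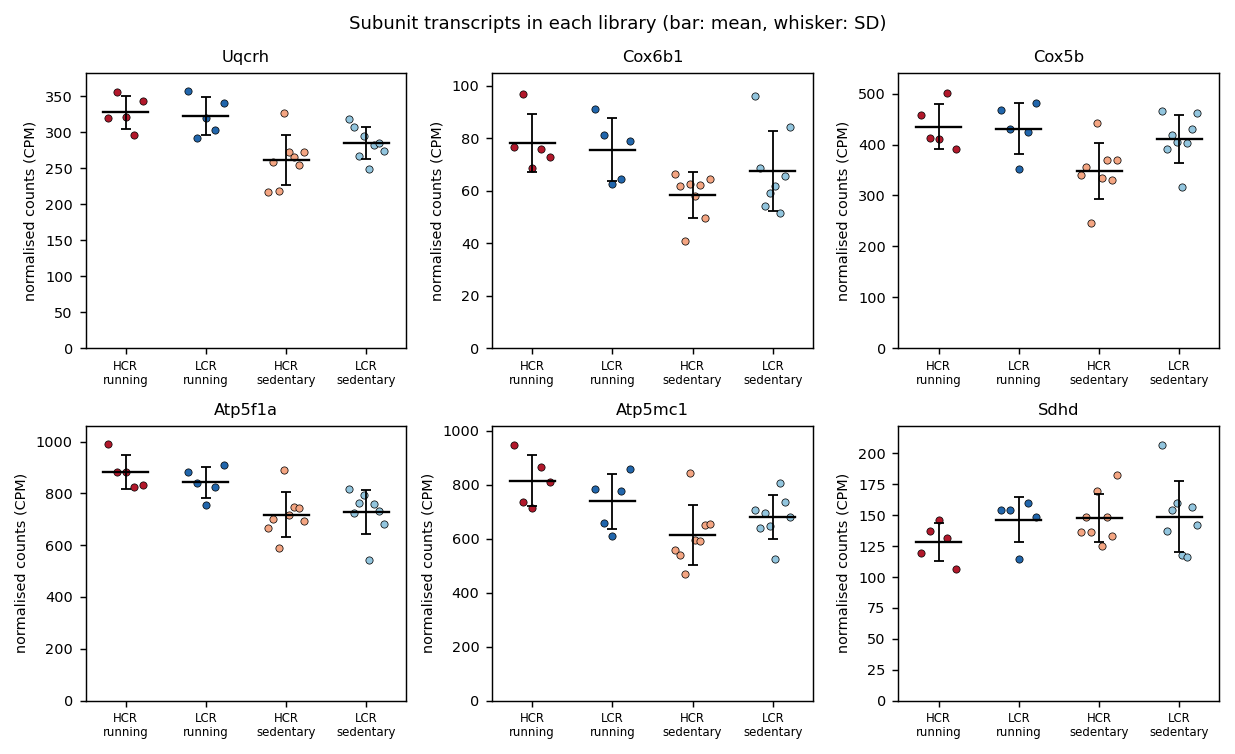
CPM of Uqcrh, Cox6b1, Cox5b, Atp5f1a, Atp5mc1 and Sdhd in each library, by group, with the group mean (bar) and SD (whisker). HCR runners lie above all sedentary HCR rats for Cox6b1 (68.9 to 97.1 against 41.05 to 66.3 CPM), whereas for Sdhd the HCR runners have the lowest of the 4 group means.

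Complex IV, cytochrome c oxidase, had 12 of 12 nuclear subunits above 0 with running averaged over the lines and a median log2 fold change of 0.17, with none past the adjusted threshold. Its summed level was 5284 ± 135 CPM in HCR runners and 4683 ± 588 CPM in sedentary HCR rats, and 5042 ± 522 CPM in LCR runners and 4711 ± 451 CPM in sedentary LCR rats (SD). Cox6b1, which faces the intermembrane space near the cytochrome c binding site, had 97.1, 68.9, 75.9, 72.9 and 76.7 CPM in HCR runners 1 to 5, against 41.05, 62.2 and 66.3 CPM as the lowest, median and highest of the 8 sedentary HCR rats. Cox6b1 had 91.2, 81.2, 62.6, 64.4 and 79.2 CPM in LCR runners 1 to 5, against 51.7, 63.7 and 96.2 CPM (lowest, median, highest) in the 8 sedentary LCR rats. All 5 HCR runners were above all 8 sedentary HCR rats, while the LCR groups overlapped. Cox6b1 had a log2 fold change of 0.43 ± 0.14 (SE) in HCR rats (edgeR, adjusted p = 0.172) and of 0.30 ± 0.096 (SE) averaged over the lines (adjusted p = 0.158). Cox6c, a small membrane subunit, had 1093, 1047, 1219, 1151 and 1249 CPM in HCR runners 1 to 5, against 745, 988 and 1161 CPM as the lowest, median and highest of the 8 sedentary HCR rats. Cox6c had 1175, 1055, 998, 1185 and 1167 CPM in LCR runners 1 to 5, against 762, 1009 and 1135 CPM (lowest, median, highest) in the 8 sedentary LCR rats. All 5 HCR and 4 of 5 LCR runners were above their sedentary medians. Cox6c had a log2 fold change of 0.20 ± 0.066 (SE) averaged over the lines (edgeR, adjusted p = 0.165). Cox5b, the zinc-binding subunit, had 413, 411, 502, 392 and 458 CPM in HCR runners 1 to 5, against 246, 348 and 442 CPM as the lowest, median and highest of the 8 sedentary HCR rats. Cox5b had 468, 431, 353, 425 and 481 CPM in LCR runners 1 to 5, against 316, 412 and 466 CPM (lowest, median, highest) in the 8 sedentary LCR rats. For Cox5b, 1 of 8 sedentary HCR rats was above the sedentary LCR median, and all 5 HCR runners were above the sedentary HCR median. The log2 fold change was -0.24 ± 0.092 (SE) between the sedentary lines (edgeR, adjusted p = 0.159) and 0.32 ± 0.10 (SE) with running in HCR rats (adjusted p = 0.177).

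Cox4i1, the general isoform of a regulatory subunit, had 437, 439, 493, 334 and 415 CPM in HCR runners 1 to 5, against 286, 376 and 417 CPM as the lowest, median and highest of the 8 sedentary HCR rats. Cox4i1 had 443, 386, 348, 380.3 and 404 CPM in LCR runners 1 to 5, against 309.9, 403 and 486 CPM (lowest, median, highest) in the 8 sedentary LCR rats. Among HCR runners, 4 of 5 were above the sedentary HCR median, and among LCR runners 2 of 5 above the sedentary LCR median. Cox4i1 had the smallest p of complex IV for a difference between the lines in the running response, of 0.27 ± 0.14 (SE) on the log2 scale (HCR minus LCR; edgeR, adjusted p = 0.852). Cox7a2, the general isoform of subunit 7a, had 84.6, 45.0, 36.9, 52.2 and 47.0 CPM in HCR runners 1 to 5, against 33.9, 52.0 and 65.5 CPM as the lowest, median and highest of the 8 sedentary HCR rats. Cox7a2 had 72.2, 53.5, 57.9, 73.3 and 71.2 CPM in LCR runners 1 to 5, against 21.3, 48.4 and 69.7 CPM (lowest, median, highest) in the 8 sedentary LCR rats. All 5 LCR runners were above the sedentary LCR median. Cox7a2 had a log2 fold change of 0.43 ± 0.20 (SE) in LCR rats (edgeR, adjusted p = 0.793). Cox8b, the heart and muscle isoform of subunit 8 in rodents, had 985, 1208, 1269, 1029 and 1300 CPM in HCR runners 1 to 5, against 696, 1009 and 1273 CPM as the lowest, median and highest of the 8 sedentary HCR rats. Cox8b had 995, 1083, 797, 1019 and 1144 CPM in LCR runners 1 to 5, against 689, 995 and 1148 CPM (lowest, median, highest) in the 8 sedentary LCR rats. Among HCR runners, 3 of 5 were above every LCR runner for Cox8b, and the sedentary lines overlapped. Its log2 fold change between the running lines was 0.20 ± 0.13 (SE) (edgeR, adjusted p = 0.708). The other complex IV subunits had log2 fold changes with running, averaged over the lines, from 0.07 for Cox6a2, the muscle isoform of subunit 6a, to 0.45 for Cox7a1, the muscle isoform of subunit 7a. Cox7a1 had 0 to 19 counts per library and an SE of 0.27. Whether the gene models used for counting cover its 3′ end was not tested.

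Complex V, the ATP synthase, had 15 of 15 nuclear subunits above 0 with running averaged over the lines, with a median log2 fold change of 0.17, and 15 of 15 in HCR rats alone. Its summed level was 10950 ± 699 CPM in HCR runners and 9269 ± 1000 CPM in sedentary HCR rats, and 10380 ± 1043 CPM in LCR runners and 9769 ± 1187 CPM in sedentary LCR rats (SD). Atp5f1a, the alpha subunit of the catalytic head, had 883, 882, 826, 833 and 989 CPM in HCR runners 1 to 5, against 588, 709 and 890.2 CPM as the lowest, median and highest of the 8 sedentary HCR rats. Atp5f1a had 881, 842, 756, 823 and 909 CPM in LCR runners 1 to 5, against 542, 747 and 816 CPM (lowest, median, highest) in the 8 sedentary LCR rats. All 5 HCR runners were above their sedentary median, and 4 of 5 LCR runners were above every sedentary LCR rat. Atp5f1a had a log2 fold change of 0.26 ± 0.065 (SE) averaged over the lines, just short of the threshold (edgeR, adjusted p = 0.0679), and of 0.30 ± 0.092 (SE) in HCR rats and 0.21 ± 0.092 (SE) in LCR rats (adjusted p = 0.162 and 0.752). It passed with DESeq2 (adjusted p = 0.0101) and with limma voom (0.0379), and not with the depth term (0.189). Atp5mc1, a gene for subunit c of the rotor ring, had 735, 714, 864, 811 and 946 CPM in HCR runners 1 to 5, against 468, 594 and 843 CPM as the lowest, median and highest of the 8 sedentary HCR rats. Atp5mc1 had 785, 659, 608, 776 and 859 CPM in LCR runners 1 to 5, against 524, 687 and 805 CPM (lowest, median, highest) in the 8 sedentary LCR rats. All 5 HCR runners were above the sedentary HCR median, and 3 of 5 LCR runners above theirs. Atp5mc1 had a log2 fold change of 0.41 ± 0.11 (SE) in HCR rats (edgeR, adjusted p = 0.113), of 0.26 ± 0.079 (SE) averaged over the lines (adjusted p = 0.131) and of 0.29 ± 0.16 (SE) for the difference between the lines (adjusted p = 0.852). Atp5f1d, the delta subunit of the central stalk, had 201, 168, 194, 228 and 214 CPM in HCR runners 1 to 5, against 154, 176 and 201 CPM as the lowest, median and highest of the 8 sedentary HCR rats. Atp5f1d had 231, 220.4, 191, 214 and 259 CPM in LCR runners 1 to 5, against 169, 204 and 214 CPM (lowest, median, highest) in the 8 sedentary LCR rats. None of the 8 sedentary HCR rats was above the sedentary LCR median for Atp5f1d, while 4 of 5 runners of each line were above their own sedentary median. Its log2 fold change was -0.19 ± 0.075 (SE) between the sedentary lines (edgeR, adjusted p = 0.177), -0.15 ± 0.096 (SE) between the running lines (adjusted p = 0.703) and 0.18 ± 0.061 (SE) with running averaged over the lines (adjusted p = 0.177).

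Atp5pf, coupling factor 6 of the peripheral stalk, had 310.4, 267, 237, 238 and 239 CPM in HCR runners 1 to 5, against 191, 237 and 298 CPM as the lowest, median and highest of the 8 sedentary HCR rats. Atp5pf had 321, 272, 252, 286 and 295 CPM in LCR runners 1 to 5, against 202, 231 and 316 CPM (lowest, median, highest) in the 8 sedentary LCR rats. All 5 LCR runners and 4 of 5 HCR runners were above their sedentary medians. Atp5pf had a log2 fold change of 0.26 ± 0.10 (SE) in LCR rats (edgeR, adjusted p = 0.715) and of 0.076 ± 0.10 (SE) in HCR rats (adjusted p = 0.814). Atp5mg, subunit g at the dimer interface, had 1107, 1198, 1219, 1073 and 1109 CPM in HCR runners 1 to 5, against 771, 1024 and 1067 CPM (lowest, median, highest) in sedentary HCR rats. It was chosen after its values were seen, because these groups did not overlap, and its log2 fold change in HCR rats was 0.19 ± 0.096 (SE) (edgeR, adjusted p = 0.408). The beta subunit of the catalytic head, Atp5f1b, was at 0.14 averaged over the lines. The gamma and epsilon subunits of the central stalk, Atp5f1c and Atp5f1e, were at 0.13 and 0.096. The peripheral stalk subunits Atp5pb, Atp5pd and Atp5po were at 0.17, 0.085 and 0.15. Subunits e and f, Atp5me and Atp5mf, were at 0.18 and 0.19, and the c-ring genes Atp5mc2 and Atp5mc3 at 0.042 and 0.17.

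**Figure D5:**
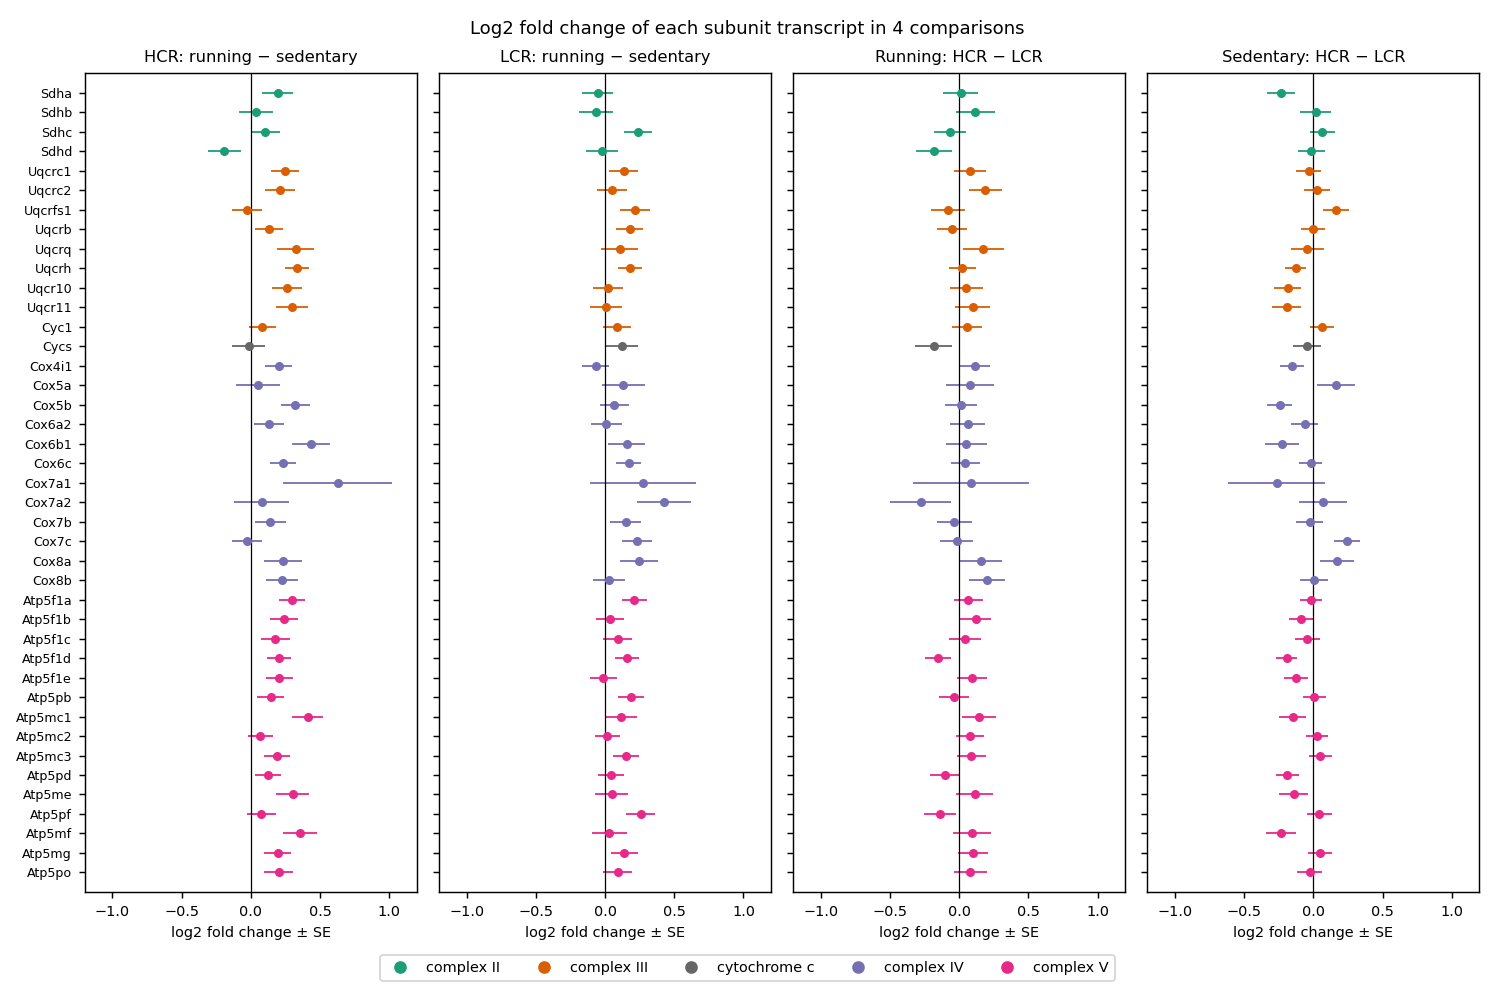
Log2 fold change of each of the 41 subunit genes with its SE, coloured by complex, for running against sedentary HCR rats, running against sedentary LCR rats, running HCR against running LCR rats and sedentary HCR against sedentary LCR rats. In the first 2 panels 37 and 36 of 41 points lie right of 0, and in the last panel 15 of 41.

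Between the sedentary lines, no subunit passed the test. In sedentary HCR against sedentary LCR rats, 15 of 41 subunits lay above 0 and 26 below it, with a median log2 fold change of -0.027, against 51.4% of all genes above 0 and a median of 0.0063. None passed the adjusted threshold in edgeR (0 of 41, smallest adjusted p = 0.159), against 2.72% of all genes. At an unadjusted p under 0.05, 1 (2.44%) was higher, against 8.43% of all genes, and 5 (12.2%) were lower, against 7.48%. The one above 0 was Cox7c, a small complex IV subunit, with a log2 fold change of 0.24 ± 0.096 (SE) (edgeR, adjusted p = 0.181). The 5 below were Sdha, Cox5b, Atp5f1d, Atp5pd and Atp5mf, with log2 fold changes from -0.24 to -0.19. Single libraries moved this median: it was -0.090 without sedentary LCR 5 and 0.0038 without sedentary HCR 3, the 2 deepest, -0.058 without sedentary HCR 4, -0.046 without sedentary LCR 2 and -0.0069 without sedentary LCR 1. The medians by complex were 0.0011 for complex II, -0.034 for complex III, -0.022 for complex IV and -0.044 for complex V. On leaving out 1 library, the complex II, III and IV medians took either sign (-0.070 to 0.054, -0.095 to 0.012 and -0.081 to 0.019), and that of complex V ran from -0.11 to -0.0027.

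Between the lines after running, 29 of 41 subunits lay above 0 in HCR against LCR rats, with a median log2 fold change of 0.061, against 50.6% of all genes. None passed (0 of 41 against 0.626% of all genes, smallest adjusted p = 0.701 by edgeR), and at an unadjusted p under 0.05 there were 0 higher, against 4.47% of all genes, and 0 lower, against 4.1%. With the depth term this median was -0.0031 with 20 of 41 above 0, and on leaving out 1 library it ran from 0.0072 without LCR runner 3 to 0.095 without LCR runner 5. The difference between the lines in the running response, HCR minus LCR, had a median of 0.087, with 28 of 41 above 0. None passed (0 of 41, against 0% of all genes, smallest adjusted p = 0.852), and 0 were higher or lower at an unadjusted p under 0.05, against 2.87% and 3.01% of all genes. A difference between the lines in the response of these genes was therefore not detectable in these 26 libraries. With the depth term its median was 0.013, with 23 of 41 above 0, and on leaving out 1 library it ran from 0.040 without LCR runner 3 to 0.15 without sedentary LCR 5.

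The isoform make-up of complexes IV and V was compared within each library, where library size cancels out. The log2 ratio of Cox6a2 to Cox6a1, the muscle over the general isoform of subunit 6a, averaged 2.70 ± 0.12 in HCR runners and 2.78 ± 0.25 in sedentary HCR rats, and 2.68 ± 0.21 in LCR runners and 2.80 ± 0.14 in sedentary LCR rats (SD). The log2 ratio of Cox8b to Cox8a averaged 3.93 ± 0.44 in HCR runners and 3.92 ± 0.36 in sedentary HCR rats, and 3.86 ± 0.21 in LCR runners and 4.13 ± 0.53 in sedentary LCR rats. Neither ratio separated the groups. For Atp5mc1 over Atp5mc3, the ratio averaged -0.17 ± 0.16 in sedentary HCR and 0.041 ± 0.14 in sedentary LCR rats, a difference of -0.21 ± 0.075 (SE). This was the smallest p of the 20 ratio tests (exact permutation test, 2-sided, p = 0.0151, Benjamini-Hochberg adjusted p = 0.302), and 0 of 20 passed. The smallest p such a test allows is 0.00794 for 5 against 5 rats, 0.000777 for 5 against 8 and 0.000155 for 8 against 8. With running, this ratio differed by 0.23 ± 0.13 in HCR rats (p = 0.0746, exact permutation test) and by -0.031 ± 0.056 in LCR rats (p = 0.740, exact permutation test). Cox4i2, the lung isoform, had 1 to 12 counts per library against 403 to 900 for Cox4i1, and Cox7a1 0 to 19 against 33 to 164 for Cox7a2. The testis isoforms Cyct and Cox8c had 0 counts in every library, which allows up to 3 counts in each.

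The partners of these subunits were compared in the same way. Of the 37 complex I subunits, 35 lay above 0 with running averaged over the lines, with a median log2 fold change of 0.13. None passed the adjusted threshold, against 0.378% of all genes. At an unadjusted p under 0.05, 16 of 37 were higher, beside 18 of the 41 subunits of complexes II to V and cytochrome c. In HCR rats alone these counts were 21 of 37 and 15 of 41. The rise was thus not particular to the 41 subunits. Of 35 tested assembly factors for complexes II to V, 31 lay above 0, with a median of 0.13, and none passed. At an unadjusted p under 0.05, 10 of 35 were higher and 0 lower, against 6.74% and 5.97% of all genes. The 6 mitochondrially encoded subunits of complexes III to V did not share this direction averaged over the lines. Of these, 2 of 6 lay above 0 with a median of -0.043, against 49.0% of all genes. In HCR rats 4 of 6 lay above 0 (median 0.032), and in LCR rats 1 of 6 (median -0.062). Their summed level was 20140 ± 1999 CPM in HCR runners and 19940 ± 3102 CPM in sedentary HCR rats, and 17150 ± 2080 CPM in LCR runners and 18070 ± 3168 CPM in sedentary LCR rats (SD). CYTB of complex III was at -0.12 ± 0.087 (SE), COX1, COX2 and COX3 of complex IV at -0.074 ± 0.10 (SE), -0.067 ± 0.085 (SE) and 0.011 ± 0.084 (SE), and ATP6 and ATP8 of complex V at -0.019 ± 0.087 (SE) and 0.054 ± 0.096 (SE), on the log2 scale. Between the lines, all 6 lay above 0 in HCR against LCR rats, with medians of 0.23 in running and 0.17 in sedentary rats. None passed (edgeR, smallest adjusted p = 0.455 and 0.187). Of all genes, 50.6% and 51.4% lay above 0, and 0.626% and 2.72% passed.

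Among sedentary rats, 3 genes of these partner lists fell in HCR against LCR rats: 1 of 37 complex I subunits and 2 of 35 assembly factors, where 2.72% of all genes passed. Ndufs5, a complex I subunit, averaged 2.21 ± 1.43 CPM in sedentary HCR and 8.21 ± 3.05 CPM in sedentary LCR rats (SD), a log2 fold change of -1.89 ± 0.35 (SE) (edgeR, adjusted p = 0.00124). These levels are low: all 37 complex I subunits together averaged 9183 CPM in sedentary HCR and 9789 CPM in sedentary LCR rats. Whether the gene models used for counting cover the 3′ end of Ndufs5 in both lines was not tested. Pet100 and Cmc1, both assembly factors of complex IV, averaged 13.3 ± 4.41 and 17.3 ± 2.62 CPM in sedentary HCR rats, against 23.6 ± 6.38 and 25.1 ± 6.25 CPM in sedentary LCR rats. Their log2 fold changes were -0.82 ± 0.21 (SE) (edgeR, adjusted p = 0.0317) and -0.54 ± 0.14 (SE) (adjusted p = 0.0327). In fits that left out 1 library, Pet100 passed in 18 of 26 and Cmc1 in 20 of 26. Other isoforms and regulators were not called: of 9 tested, 8 lay above 0 with running averaged over the lines, with a median of 0.14. The exception was Atp5if1, the inhibitor that blocks reverse action of the ATP synthase, at -0.18 ± 0.073 (SE) (edgeR, adjusted p = 0.28).

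Of 12 regulators of mitochondrial genes, 11 were tested, and 1 was called, between the sedentary lines, where 2.72% of all genes passed. Ppargc1b, the coactivator PGC-1 beta, fell in sedentary HCR against sedentary LCR rats, at 94.5 ± 7.87 CPM in sedentary HCR and 130.4 ± 20.7 CPM in sedentary LCR rats (SD), with a log2 fold change of -0.46 ± 0.097 (SE) (edgeR, adjusted p = 0.00466). Ppargc1a, the coactivator PGC-1 alpha, averaged 47.2 ± 5.56 CPM in HCR runners and 39.2 ± 9.76 CPM in sedentary HCR rats, and 56.1 ± 17.6 CPM in LCR runners and 34.4 ± 4.7 CPM in sedentary LCR rats. Its log2 fold change with running averaged over the lines was 0.48 ± 0.12 (SE), short of the threshold (edgeR, adjusted p = 0.0569). The factors whose motifs were searched had log2 fold changes with running of -0.036 for Nrf1, -0.091 for Gabpa, 0.17 for Esrra, 0.15 for Esrrg and 0.09 for Yy1, averaged over the lines, and none was called. Tfam, which maintains and transcribes mitochondrial DNA, was at 0.022, Tfb2m at 0.10, Ppara at 0.13 and Ppard at -0.065.

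Markers of fibre types and of other cells were compared between the same groups. The 9 fast fibre markers in the table summed to 2429 to 4944 CPM in HCR runners and 2357 to 8872 CPM in sedentary HCR rats, and to 5480 to 12390 CPM in LCR runners and 6651 to 12620 CPM in sedentary LCR rats. Of these, Myh2, Tnni2 and Tnnt3 fell in running HCR against running LCR rats, with log2 fold changes of -2.86 ± 0.59 (SE), -2.51 ± 0.46 (SE) and -1.99 ± 0.37 (SE) (edgeR, adjusted p = 0.0207, 0.00599 and 0.00881). These 3 calls, against 0.626% of all genes, were lost when the 2 conflicting runners were moved to the line in their titles (adjusted p = 0.997 for each). With both conflicting runners left out, Myh2 (adjusted p = 0.0902) and Tnni2 (0.0508) did not pass, and Tnnt3 did not pass in a fit of the running groups alone (0.125). In fits that left out 1 library, Myh2 passed in 23 of 26, and was lost without HCR runner 2, HCR runner 3 or LCR runner 5, while Tnni2 and Tnnt3 passed in all 26. Myh1 and Myh4 were not called. The 7 slow fibre markers summed to 31510 to 44190 CPM in HCR runners and 22960 to 44110 CPM in sedentary HCR rats, and to 32590 to 39780 CPM in LCR runners and 27690 to 38240 CPM in sedentary LCR rats. One of them, Tnnc1, the slow troponin C, rose with running averaged over the lines, at 0.40 ± 0.089 (SE) (edgeR, adjusted p = 0.0425), and Myh7 was lowest of the 7, at 0.058 ± 0.086 (SE). All 7 slow markers lay above 0 in this comparison, with a median log2 fold change of 0.106. Of the 9 fast markers, 8 lay below 0, with a median of -0.358. The slow median was 0.235 in HCR rats (7 of 7 above 0) and 0.026 in LCR rats (5 of 7). Tnnc1 passed in 7 of 26 fits that left out 1 library.

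The 5 adipocyte markers summed to 87.2 to 151 CPM in HCR runners and 122 to 204 CPM in sedentary HCR rats, and to 85.2 to 128 CPM in LCR runners and 96.3 to 191 CPM in sedentary LCR rats. The 4 endothelial markers summed to 99.1 to 131 CPM in HCR runners and 117 to 175 CPM in sedentary HCR rats, and to 101 to 139.6 CPM in LCR runners and 119.8 to 179.8 CPM in sedentary LCR rats. Macrophage sums (6 markers) were 208 to 334 CPM in HCR runners and 224 to 358 CPM in sedentary HCR rats, and 197 to 314 CPM in LCR runners and 171 to 268 CPM in sedentary LCR rats. Folr2, a macrophage marker and the only one called among the lists of other cell types, rose in sedentary HCR against sedentary LCR rats. Its log2 fold change was 0.73 ± 0.15 (SE) (edgeR, adjusted p = 0.00516), where 2.72% of all genes passed. All 6 macrophage markers lay above 0 in this comparison (median 0.34), 3 of them at an unadjusted p under 0.05. So did 3 of 3 tested adipocyte (median 0.72), 4 of 4 fibroblast and 3 of 4 Schwann cell markers. Endothelial markers had 2 of 4 above 0 and smooth muscle markers 0 of 3. Fibroblast sums (4 markers) ranged from 285 to 660.3 CPM, Schwann cell sums (4 markers) from 53.1 to 242 CPM and smooth muscle sums (3 markers) from 100.5 to 305 CPM over the 26 libraries. No marker of these lists was at 0 in every library. With running in HCR rats, 0 of 3 tested adipocyte and 0 of 4 endothelial markers lay above 0 (median log2 fold changes -0.97 and -0.26). Fibroblast and Schwann cell markers also had 0 of 4 above 0 (-0.28 and -0.56). Macrophage markers had 1 of 6 (-0.11) and smooth muscle markers 2 of 3 (0.037). In LCR rats the medians, in the same order, were -0.22, -0.24, 0.074, 0.079, 0.17 and -0.39. Of all genes, 49.1% lay above 0 in HCR rats and 50.3% in LCR rats. The part of fibre type and of other cells in the subunit results was not tested.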

How the data were processed

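The deposited table holds raw counts per gene for the 26 libraries, not normalised. Per the labels' protocols, total RNA was made into QuantSeq 3′ FWD v2 libraries and sequenced single-end. Per the submitters' processing notes, reads were handled with STAR, featureCounts, cutadapt and UMI-tools on the build mRatBN7.2 (rn7), with FastQC and MultiQC for quality. Versions, strand setting, UMI collapsing and the handling of reads shared with pseudogenes or overlapping genes are not given in the sources used here, so genes with close copies are uncertain.

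From these counts, edgeR 4.0.16 (R 4.3.3) was run once on all 4 groups: filter by expression, TMM factors, robust quasi-likelihood F test, and Benjamini-Hochberg adjustment over 10064 genes at 0.05. The biological coefficient of variation was 0.156. SE is the log2 fold change over the square root of F. Alternatives used DESeq2 1.42.0 and limma 3.58.1 (voom). Isoform ratios were log2 of counts with 0.5 added, tested by exact permutation in scipy 1.17.1. Scripts were tested on simulated counts. No libraries of a group were duplicates (smallest chi-square per degree of freedom 2.26).

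Members, gene lists, motifs and tests were chosen with earlier results of these data known. Values per library are given for subunits called in any of 6 comparisons and, in each complex, for the 2 of smallest p for running averaged over the lines and the 1 of smallest p in each other comparison. Called genes of the other lists, mitochondrially encoded subunits, regulators and myosins are also named. Of the lists, 37 of 39 assembly factors, 9 of 10 fast fibre markers and all others were matched by symbol. Same-numbered libraries did not deviate together (33 pairs, r from -0.221 to 0.257, 3 over 0.1), so numbers were not used to pair rats. Promoters came from RefSeq (GRCr8); no coordinates were converted.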

Additional observations from a re-analysis of the deposited data

Results flagged for a closer look

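A library was set apart here when its gap to the nearest library of its group, divided by the range of the group, was above Dixon's 95% critical value. This was so for 21 of 184 groups of values examined (164 of single subunits and 20 of sums). Chance gives about 1 in 20 for a single group. The 184 groups are not independent, as subunits shifted together within a library and the sums hold the same subunits. The count therefore cannot be held against that rate. Sedentary LCR 5, the deepest LCR library, was set apart in 11 of the 21, each time as the lowest of its group. It had 319.6 CPM of Sdhb, 393 of Uqcr10, 762 of Cox6c, 689 of Cox8b, 711 of Atp5f1e, 416 of Atp5mf and 692 of Atp5mg. Its sums were 859 CPM for complex II, 2455 for complex III, 7154 for complex V and 14310 for all 41 subunits. The deepest HCR library, sedentary HCR 3, was set apart for Atp5mg at 771 CPM. The part of sequencing depth in these values was not tested.

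The others were single libraries. Sedentary HCR 4 was highest for Sdha at 179 CPM and for Cox6a2 at 941 CPM, and sedentary HCR 5 for Cox8a at 85.6 CPM. Sedentary LCR 1 was highest for Atp5pf at 316 CPM, and sedentary LCR 6 was lowest for Cox5a at 89.8 CPM. Among runners, HCR runner 1 was highest for Cox6b1 at 97.1 CPM, HCR runner 2 highest for Cox7b at 373 CPM, HCR runner 3 lowest for Cycs at 54.6 CPM and LCR runner 3 lowest for Sdhd at 115 CPM. No subunit passed the test for a difference between the lines in the running response.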

How the results depend on the processing

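The count of subunits called for running averaged over the lines was 1, and it was 0 with upper-quartile factors, without a filter on low counts, without the libraries whose titles conflict, without the 2 deepest libraries and with the depth term, against 2 with DESeq2 and 2 with limma voom. With the replicate block it was 0, though the numbers were not shown to pair the rats. Myh2 also missed the threshold under that block (adjusted p = 0.0549). Leaving out 1 library gave 0 to 3. For running in HCR rats the count was 3 with DESeq2, against 0, and 0 to 2 on leaving out 1 library, with 2 without sedentary HCR 4. The count of isoform ratios past the threshold, 0, was 0 to 1 on leaving out 1 library. The cause of these shifts was not tested. The setting with the 2 deepest libraries left out, the depth term and total counts without factors were added after seeing the data. The Cycs log2 fold change with running in HCR rats changed sign to 0.0040 with voom, to 0.070 with the line in the title, and in 4 of 26 fits that left out 1 library (range -0.061 to 0.084), and its difference between the lines to 0.025 with the line in the title. The median of all genes tested stayed within 0.061 of 0 under every setting. Between libraries of a group, the median subunit had a pooled SD of 0.15 log2 units, as large as the shift with running, and 5 runners a line and 1099961 to 2523942 counts a library limit the precision for a single subunit.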
